A study of Rattus norvegicus with 77 samples.

Results

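Transcripts of the proteasome, the protease complex that degrades ubiquitin-tagged proteins, were followed in the sperm of Fischer 344 rats after 2,5-hexanedione (HD), a compound that injures Sertoli cells. They were taken as every gene symbol of the array that begins with Psma, Psmb, Psmc, Psmd, Psme, Psmf or Psmg and a digit, on probe sets (the probes of 1 transcript) that carry only that symbol. This gave 47 genes of 14506 on the array, with 54 of its 29214 probe sets, and for the 7 genes with several probe sets the one with the highest mean signal was used. Psma8, Psmf1 and Psmg3 had no probe set of their own, and Psma3 shared one with Psma3l, so these 4 genes are not among the 47. Adult male rats drank water with 0.33% HD for 3 months and were killed at once (HD, n = 19) or after 3 further months without exposure (HD-recovery, n = 20). Controls drank plain water and were killed at the same times (water, n = 20, and water-recovery, n = 18). Each rat gave 1 array of RNA from sperm of the cauda epididymis, and the sperm pellet had been treated with a buffer that lyses somatic cells. The values are the log2 signals as deposited, and levels were compared between groups for a gene, never between genes, because probe sets differ in brightness.

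As background, the proteasome holds a barrel-shaped core, the 20S particle, made of stacked rings of alpha subunits (Psma genes) and beta subunits (Psmb genes), with the protease sites inside. A 19S cap with a ring of ATPases (Psmc genes) and a set of non-ATPase subunits (most Psmd genes) binds ubiquitin chains, unfolds the substrate and feeds it into the core. In cells exposed to interferon, and constitutively in many leukocytes, Psmb8, Psmb9 and Psmb10 replace the catalytic subunits Psmb5, Psmb6 and Psmb7 to form the immunoproteasome, whose peptides are presented on MHC class I. The testis has a variant of its own, the spermatogenesis-specific alpha subunit Psma8. Psme4 (PA200) is an activator that is needed for histone removal in mouse spermatids. Proteasomes are retained in mature sperm of mammals, where they have been linked to fertilization.

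By role, the genes measured were 7 alpha subunits, 7 constitutive beta subunits, 4 inducible or tissue-specific beta subunits (Psmb8, Psmb9, Psmb10 and the thymic Psmb11), all 6 ATPases, 11 non-ATPase subunits, 6 assembly chaperones and 4 activators. The rule also took in Psmc3ip, a meiotic recombination factor, and Psme3ip1, a binding partner of Psme3. Both are named after a subunit that they bind and are not proteasome subunits.

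Arrays of 1 group differed widely, and this bears on every result below. Each array was correlated with every other one of its group over all probe sets, and the medians of these correlations lay between 0.83 and 0.98. Of the 77 arrays, 11 stood apart, this median lying below the first quartile of the group by more than 1.5 interquartile ranges. These were HD replicates 3, 4 and 5, water replicates 9, 12 and 20, HD-recovery replicates 2, 9 and 16, and water-recovery replicates 12 and 15. The 3 HD arrays that stood apart had the 3 highest means over the 47 genes in their group, and the 2 water-recovery arrays had the 2 highest in theirs. In HD-recovery, replicates 2 and 9 had the lowest means of the 20 arrays. Leaving these arrays out therefore lowers the HD and water-recovery means and raises the HD-recovery mean. All 77 arrays were kept, and values without the arrays that stood apart are given beside the results.

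Differences are exposed minus control by the labels of the arrays, in log2 units, and their direction is opposite to that in the study's own list of altered transcripts. The groups are therefore called by their labels. Whether the labels or the direction of that list are exchanged was not settled. If the labels are, every higher and lower given between the exposed and control arrays concerned would be reversed. That list covers the end of exposure and does not bear on the labels of the recovery arrays. A gene was called altered at a q-value under 0.05 from limma fitted over all 29214 probe sets.

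At the end of exposure, no proteasome gene was called altered in arrays labelled HD against arrays labelled water (0 of 47 in limma, with 0.472% of all probe sets called). At an unadjusted p under 0.05, 0 were higher and 2 were lower, Psmg2 and Psmd7, against 3.4% of all probe sets higher and 4.91% lower. The differences fell on both sides of 0, with 23 positive and 24 negative, and their median was −0.0028 against 0.011 over all probe sets. The 95% confidence interval lay within 0.5 log2 units on either side of 0 for 45 of the 47 genes, so that for these a change above 1.41-fold lay outside the interval. The exceptions were Psmd8, whose interval reached 0.65, and Psme4, whose interval reached 0.51.

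**Figure D1:**
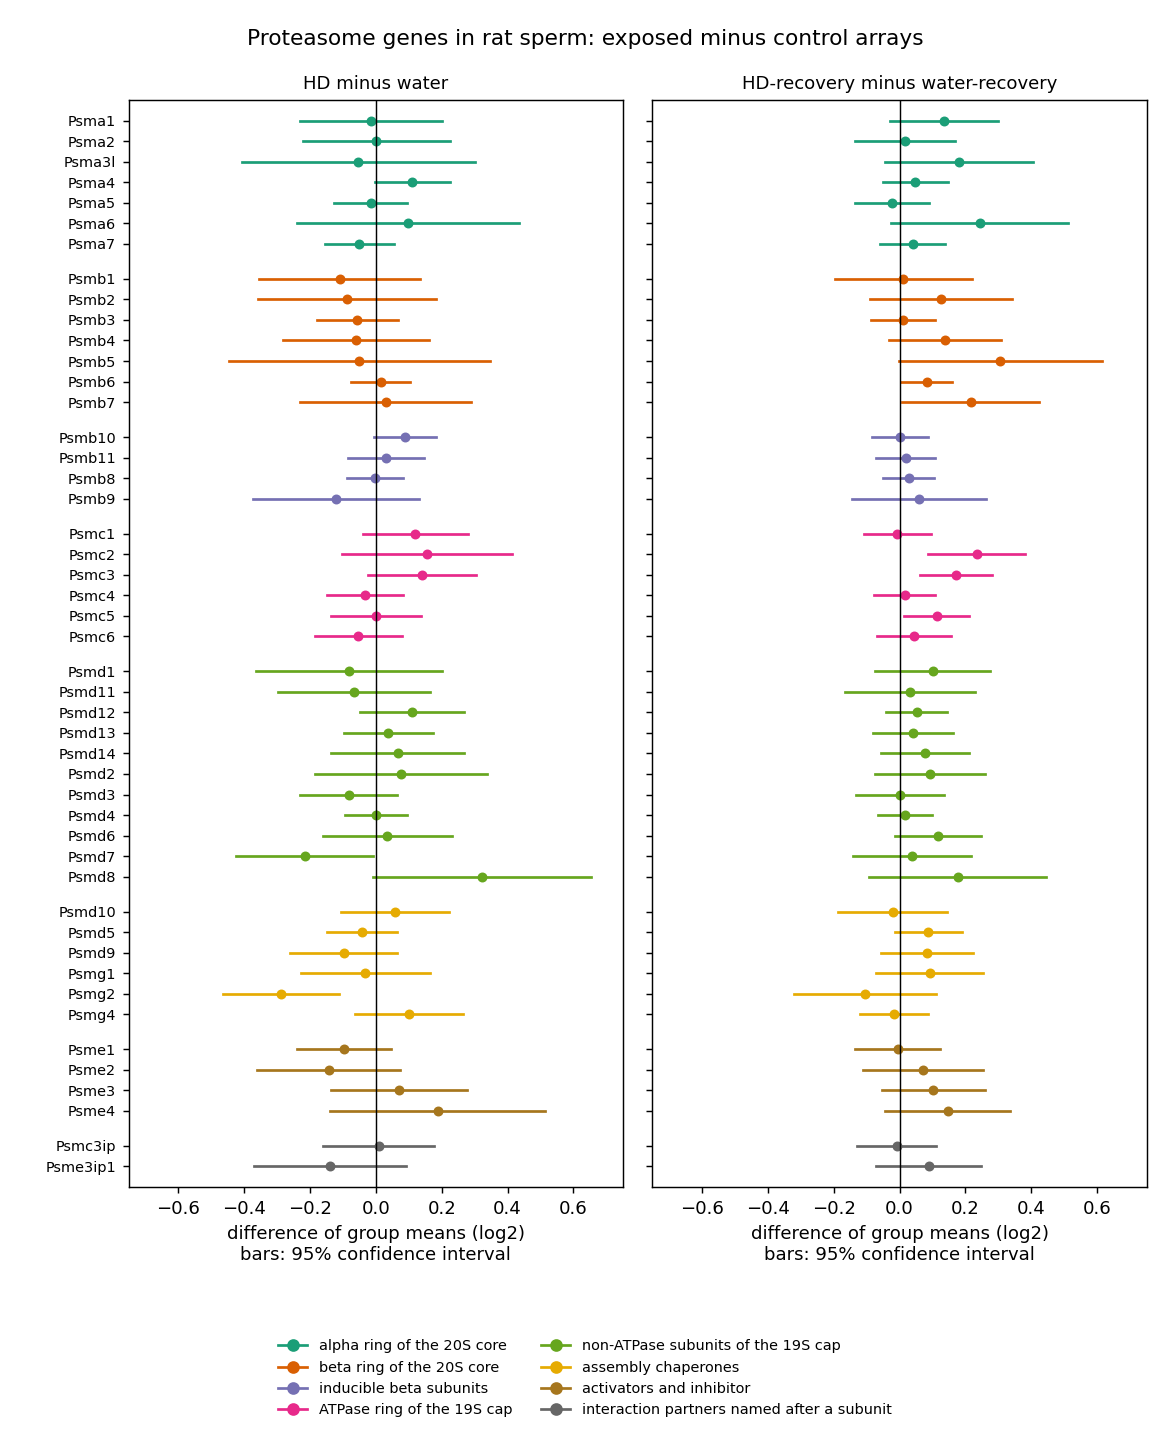
Difference of group means (log2, points) with its 95% confidence interval (bars) for the 47 genes, coloured by role, for HD minus water (left) and HD-recovery minus water-recovery (right). On the left 23 points lie above 0 and 24 below, and on the right 40 lie above 0 and 7 below.

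Psmg2, a chaperone that pairs with Psmg1 in the first steps of alpha ring assembly, had the smallest p-value. Its log2 signal had a lowest value of 5.99, a median of 6.66 and a highest of 7.22 over arrays labelled HD, against 6.60, 6.95 and 7.49 over arrays labelled water. The groups overlapped, with 17 of the 19 HD arrays under the median of the water arrays. The difference was −0.29 (SE 0.09, p = 0.00197, q = 0.14 from limma), and −0.34 (q = 0.0082) without the arrays that stood apart. Leaving out HD replicate 5 alone was enough to call it (q = 0.0399 from limma, with 1.13% of all probe sets called). Its partner Psmg1 had a difference of −0.03 (q = 0.99 from limma), and Psmg4, another assembly chaperone, 0.10 (q = 0.89).

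Psmd7, a scaffold of the lid of the 19S cap that pairs with the deubiquitinase Psmd14, had 6.75, 7.03 and 7.96 (lowest, median, highest) in arrays labelled HD, against 7.06, 7.31 and 7.79 in arrays labelled water. In 14 of the 19 HD arrays it lay below the water median, while the 3 highest HD arrays were replicates 3, 4 and 5. Its difference was −0.22 (SE 0.10, q = 0.57 from limma), and −0.36 (q = 0.0040) without the arrays that stood apart. Psmd8, another lid subunit, had the largest positive difference. Its signal was 6.85, 7.29 and 9.30 in arrays labelled HD, against 6.34, 7.13 and 7.79 in arrays labelled water. The difference was 0.32 (95% interval −0.01 to 0.65, q = 0.63 from limma), the highest array was HD replicate 5, and the difference was 0.17 (q = 0.21) once the arrays that stood apart were left out.

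Among the alpha subunits, Psma4 lay above the water median in 17 of the 19 arrays labelled HD, with a difference of 0.11 (SE 0.06, q = 0.61 from limma) that was 0.03 without the arrays that stood apart. Of the constitutive beta subunits, 5 had negative differences and 2 positive, between −0.11 (Psmb1) and 0.03 (Psmb7). The ATPases lay between −0.05 (Psmc6) and 0.16 (Psmc2), and the other non-ATPase subunits between Psmd7 and Psmd8. Among the activators, Psme1 and Psme2, which form the interferon-inducible PA28 ring, had differences of −0.10 (q = 0.86 from limma) and −0.14 (q = 0.87), with 16 and 13 of the 19 HD arrays under the median of water. The dimmer probe set of Psme1 went the other way, at 0.04, with 13 of the 19 HD arrays above the water median. That of Psme2 had −0.19. Psme4 had 6.80, 7.09 and 9.58 in arrays labelled HD, against 6.43, 7.14 and 7.63 in arrays labelled water. The difference of 0.19 (SE 0.16, q = 0.91) turned to −0.07 without the arrays that stood apart.

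**Figure D2:**
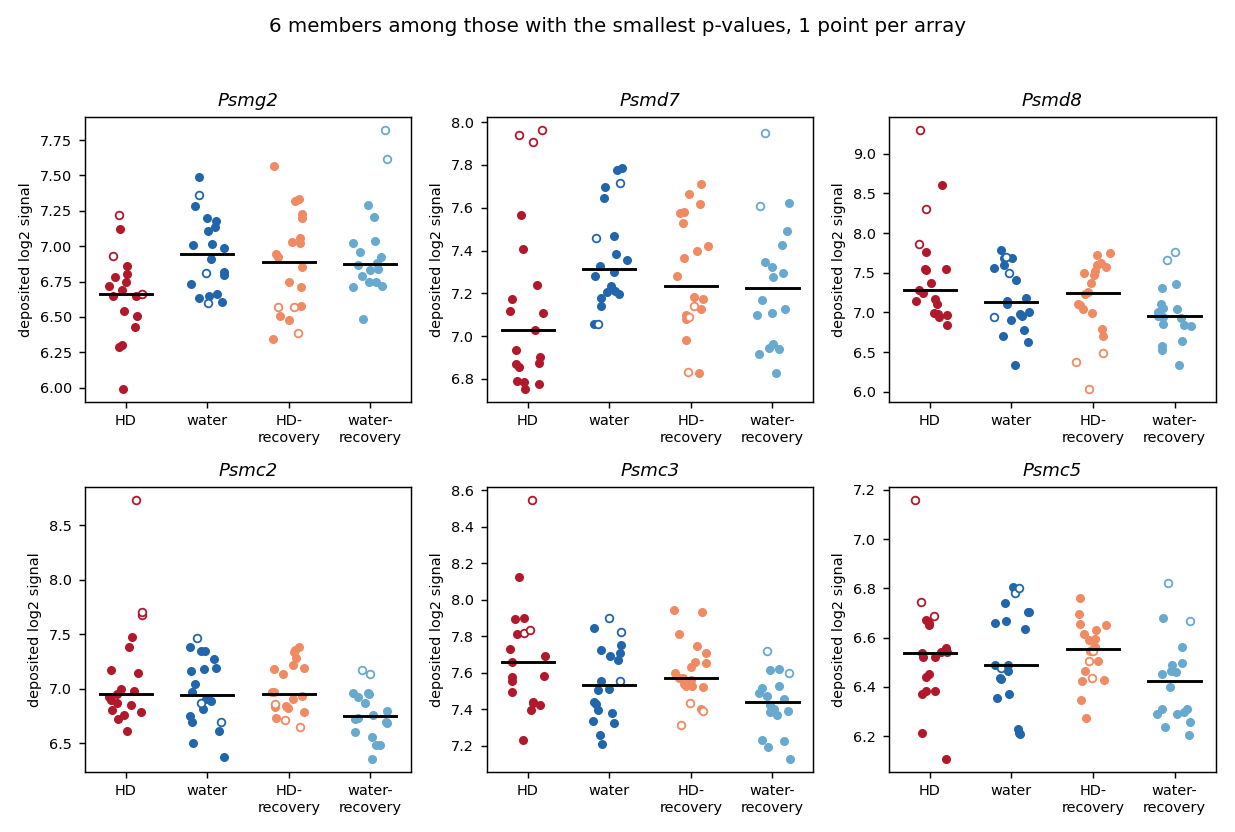
Deposited log2 signal of 6 members in every array by group (1 point per array, black bar: group median, open points: arrays that stood apart). Psmg2 and Psmd7 lie lower in most HD arrays than in water arrays, with the highest HD points of Psmd7 being arrays that stood apart, and Psmc2, Psmc3 and Psmc5 lie higher in most HD-recovery arrays than in water-recovery arrays.

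After recovery, no proteasome gene was called altered in HD-recovery against water-recovery arrays (0 of 47, with 0% of all probe sets called and a smallest q-value of 0.72 over the array). At an unadjusted p under 0.05, 5 genes were higher and 0 lower, against 2.86% and 1.65% of all probe sets. The differences leaned to one side: 40 of the 47 were positive, with a median of 0.06, while 46.4% of all probe sets were positive, with a median of −0.01. All 7 constitutive beta subunits, all 4 inducible ones and all 11 non-ATPase subunits had positive differences, as had 6 of 7 alpha subunits and 5 of 6 ATPases. Some other lists leaned with them: 24 of the 30 sperm and spermatid markers had positive differences after recovery, with a median of 0.10. Of the 30, 11 had an unadjusted p under 0.05 in either direction. Of the 17 epididymal markers 14 were positive, with a median of 0.07. Other lists leaned the other way. Positive were 3 of 24 leukocyte and macrophage markers, 0 of 6 erythroid markers and 0 of 9 antigen presentation genes. So were 3 of 10 Sertoli cell markers and 4 of 13 fibroblast and smooth muscle markers, and the spermatocyte markers split 7 to 7. The part of these lists in the members' differences was not tested. The members vary together across arrays (below), so these counts are not 47 separate observations, and they are given with no test.

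The ATPase Psmc2 had the smallest p-value. Its log2 signal was 6.65, 6.95 and 7.38 (lowest, median, highest) in HD-recovery arrays, against 6.36, 6.75 and 7.17 in water-recovery arrays, and 17 of the 20 HD-recovery arrays lay above the water-recovery median. The difference was 0.23 (SE 0.07, p = 0.00256, q = 0.72 from limma). Its ring neighbour Psmc3 had 7.31, 7.57 and 7.95 in HD-recovery arrays, against 7.13, 7.44 and 7.72 in water-recovery arrays, a difference of 0.17 (SE 0.05, p = 0.00285, q = 0.72). The same 2 genes had differences of 0.16 and 0.14 in arrays labelled HD against water (q = 0.90 and 0.72). Psmc5, another ATPase, lay above the control median in 17 of the 20 HD-recovery arrays, with a difference of 0.11 (SE 0.05, p = 0.0273). Values of Psmg2, the gene with the largest negative difference at the end of exposure, overlapped throughout, at 6.34, 6.89 and 7.57 in HD-recovery arrays and 6.49, 6.87 and 7.82 in water-recovery arrays. The difference was −0.10 (95% interval −0.32 to 0.11), and 0.05 without the arrays that stood apart. Psma5, an alpha subunit, and Psmd10 (gankyrin), a chaperone of the ATPase ring, had differences of −0.02 each.

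The catalytic subunits and their inducible counterparts bear on which form of the core the RNA would encode. Psmb5 (chymotrypsin-like site) varied the most. Its signal was 6.82, 7.39 and 9.37 (lowest, median, highest) in arrays labelled HD, 6.62, 7.79 and 8.66 in water, 6.62, 7.78 and 8.48 in HD-recovery and 6.76, 7.34 and 8.26 in water-recovery arrays. The lowest water, HD-recovery and HD arrays were replicates 12, 2 and 12, and the highest HD array was replicate 5. Its difference was −0.05 (95% interval −0.45 to 0.35) at the end of exposure and 0.31 (−0.001 to 0.61, p = 0.0509 from limma) after recovery. Its counterpart Psmb8 varied far less, at 6.17, 6.47 and 6.79 in HD, 6.32, 6.46 and 6.67 in water, 6.27, 6.44 and 6.72 in HD-recovery and 6.27, 6.44 and 6.63 in water-recovery arrays. Its differences were −0.003 (−0.09 to 0.08) and 0.03 (−0.05 to 0.11).

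Psmb7 (trypsin-like site) had 7.67, 8.07 and 9.35 in HD, 7.57, 8.22 and 8.80 in water, 7.71, 8.30 and 8.86 in HD-recovery and 7.67, 8.09 and 8.73 in water-recovery arrays. It lay above the control median in 16 of the 20 HD-recovery arrays, and its differences were 0.03 (q = 0.99 from limma) at the end of exposure and 0.22 (SE 0.10, p = 0.0426) after recovery. Its counterpart Psmb10 lay above the water median in 16 of the 19 HD arrays, with a difference of 0.09 (SE 0.05, q = 0.64), and was level after recovery (0.002, 95% interval −0.08 to 0.09). Psmb6 (caspase-like site) had differences of 0.02 (q = 0.99) and 0.08 (SE 0.04, p = 0.0413), and its counterpart Psmb9 −0.12 (SE 0.13, q = 0.95) and 0.06 (SE 0.10). After recovery the 95% intervals of Psmb6 and Psmb7 lay above 0, and those of Psmb5 and of the 3 inducible subunits spanned 0. The dimmer probe set of Psmb6 had a difference of 0.02 (95% interval −0.09 to 0.12) after recovery. The difference between paired subunits was not tested.

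**Figure D3:**
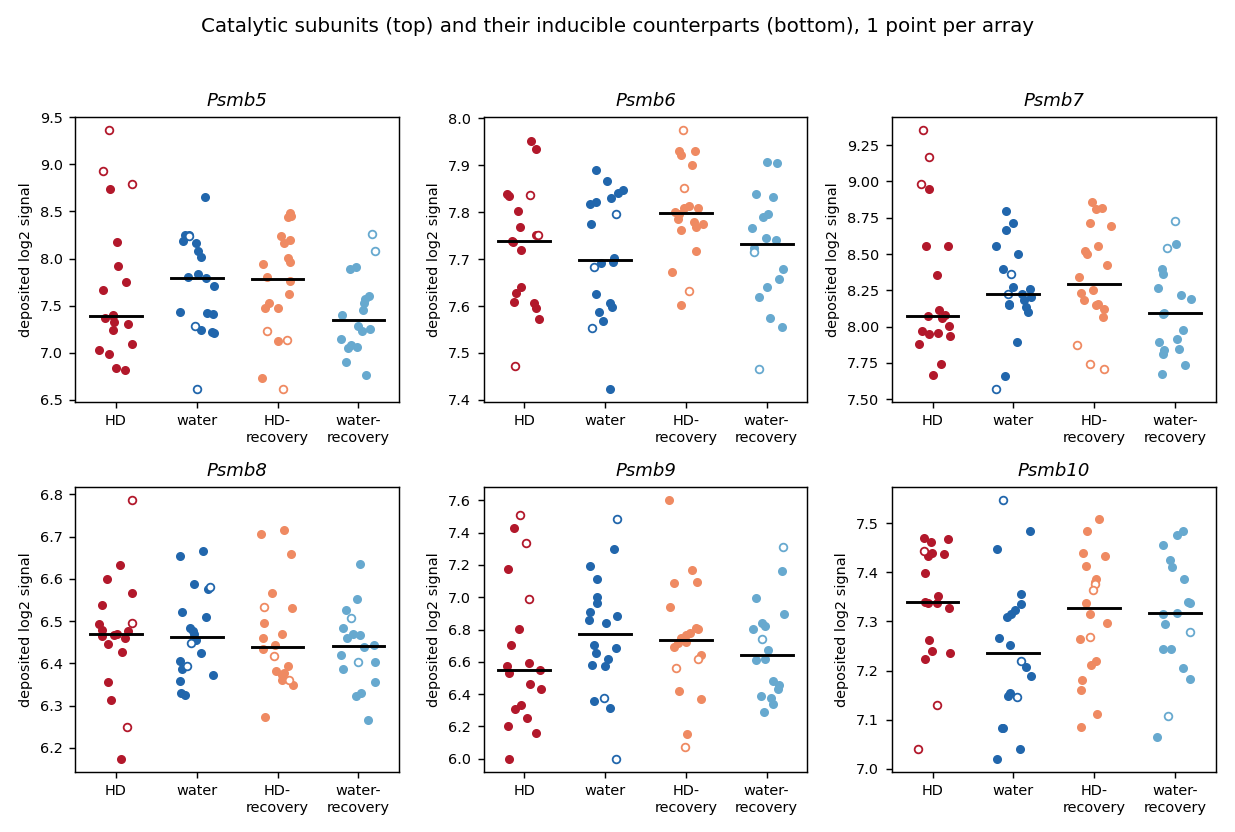
Deposited log2 signal of the catalytic subunits Psmb5, Psmb6 and Psmb7 (top) and of Psmb8, Psmb9 and Psmb10, which replace them in the immunoproteasome (bottom), in every array by group (1 point per array, black bar: group median, open points: arrays that stood apart; each panel has its own axis). Psmb5 spans 6.62 to 9.37 over the 77 arrays and Psmb8 6.17 to 6.79.

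The promoters of 2 such pairs are shown because their transcripts behaved differently across arrays: Psmb5 and Psmb7 varied widely and together, and Psmb8 and Psmb10 did not. The third pair ran the other way. The SD within groups was 0.12 for Psmb6 and 0.36 for its inducible counterpart Psmb9, so the contrast is not one of constitutive against inducible subunits. The promoters shown were chosen after the values were seen. Each is the RefSeq window of the GRCr8 assembly from 250 bases before to 50 after the gene's start, given 5′ to 3′ on the gene's strand, with matches to the searched motifs in capitals. Psmb5 lies at chr15:32047330-32047629, next to the thymic Psmb11. Psmb8 lies at chr20:4656982-4657281, between Tap2 and Tap1, the MHC-linked peptide transporters. Psmb7 lies at chr3:42827421-42827720 and Psmb10 at chr19:50743243-50743542, all on the minus strand.
Psmb5: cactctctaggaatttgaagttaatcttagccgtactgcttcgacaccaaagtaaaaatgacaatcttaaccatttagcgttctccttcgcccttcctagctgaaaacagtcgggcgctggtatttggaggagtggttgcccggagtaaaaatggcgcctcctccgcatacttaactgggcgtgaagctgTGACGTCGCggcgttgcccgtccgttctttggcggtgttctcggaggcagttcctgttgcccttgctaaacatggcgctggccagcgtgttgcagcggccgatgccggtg
Psmb8: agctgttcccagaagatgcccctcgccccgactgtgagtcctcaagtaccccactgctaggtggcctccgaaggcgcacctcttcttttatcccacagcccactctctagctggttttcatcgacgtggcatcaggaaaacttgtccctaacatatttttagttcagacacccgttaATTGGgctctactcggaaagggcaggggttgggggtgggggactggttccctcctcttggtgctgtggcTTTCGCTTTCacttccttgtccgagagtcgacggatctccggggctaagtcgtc
Psmb7: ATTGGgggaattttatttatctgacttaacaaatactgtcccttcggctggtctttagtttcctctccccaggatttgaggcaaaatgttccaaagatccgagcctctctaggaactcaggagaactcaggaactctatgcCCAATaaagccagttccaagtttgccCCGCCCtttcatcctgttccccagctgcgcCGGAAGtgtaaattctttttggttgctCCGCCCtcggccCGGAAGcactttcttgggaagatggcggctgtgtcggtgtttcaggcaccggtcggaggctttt
Psmb10: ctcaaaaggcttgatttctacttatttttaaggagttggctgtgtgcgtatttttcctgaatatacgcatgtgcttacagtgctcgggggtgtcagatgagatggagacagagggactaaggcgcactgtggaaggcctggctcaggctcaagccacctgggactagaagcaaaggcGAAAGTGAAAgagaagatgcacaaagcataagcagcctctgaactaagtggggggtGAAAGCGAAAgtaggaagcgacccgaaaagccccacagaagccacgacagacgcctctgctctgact

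In Psmb5 the capitals mark TGACNNNGC, the core of the antioxidant response element, 60 bases before the start. In Psmb8 they mark an inverted CCAAT box 73 bases before it and an inverted core of the interferon-stimulated response element (GAAA, any 2 bases, GAAA), beginning 4 bases before it. Psmb7 held 2 CCAAT boxes, of which the one at the first base of the window is inverted, 2 inverted GC boxes (GGGCGG) and 2 ETS cores (CGGAAG), and Psmb10 held 2 interferon response cores, at 73 and 17 bases before the start. Windows were at hand for 41 of the 47 genes, and 6 motifs were searched, each alone and on both strands, so that matches could overlap. GGGCGG was found in 29 of the 41 (70.7%, against 33.1% of all 33469 promoters), CGGAAG in 22 (53.7% against 16.6%), CCAAT in 20 (48.8% against 37.5%), TGACNNNGC in 7 (17.1% against 12.1%), the interferon response core in 7 (17.1% against 3.92%) and TATAA in 6 (14.6% against 26.2%). The 7 genes with the interferon response core were Psma4, Psmb3, Psmb8, Psmb10, Psmd7, Psme2 and Psmg4. A match describes the letters of the window and is not evidence of binding.

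The largest pattern in these genes lay within the groups. In each group the members varied together from rat to rat: the median correlation between 2 members over arrays was 0.56 in HD, 0.40 in water, 0.43 in HD-recovery and 0.23 in water-recovery arrays (n = 19, 20, 20 and 18), against 0.08, 0.04, 0.06 and 0.05 between all probe sets. Without the arrays that stood apart these medians over members were 0.33, 0.42, 0.37 and 0.20. Arrays of 1 group share scaling and RNA composition, so the correlations are given as a description. The mean over the 47 genes had a lowest value of 6.91, a median of 7.06 and a highest of 7.89 over HD arrays, 6.87, 7.17 and 7.47 over water, 6.87, 7.19 and 7.44 over HD-recovery and 6.92, 7.07 and 7.32 over water-recovery arrays.

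Single arrays carried much of the range. HD replicate 5 was the highest HD array for 28 of the 47 genes, and water replicate 7 the highest water array for 16. At the low end, water replicate 12 was lowest for 17 genes and HD-recovery replicate 2 for 17. HD replicate 5 also had the lowest correlation with its group (0.83) and the lowest array median (6.51), and it was highest in its group for the mean of 14 spermatocyte markers (7.39, against a group median of 6.18), of 30 sperm and spermatid markers (10.39, against 8.87), of 10 Sertoli cell markers (7.49, against 6.73) and of the 19 partners of the proteasome described below (8.22, against 7.22). For the other lists the highest HD array was another one: replicate 14 for leukocyte, erythroid and antigen presentation genes, 4 for epididymal and 15 for fibroblast and smooth muscle markers. The part of these lists in the members' values was not tested.

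After group means were removed over all probe sets, the first principal component held 41.9% of the variance over the 77 arrays. Its sign is arbitrary and was set so that the members' correlations had a positive sum. The side of 0 on which most members lie therefore follows from that choice. Of the 47 genes, 32 correlated with it above 0.5 (68.1%, against 18.9% of all probe sets). The share of all probe sets with equally strong negative correlations was not counted. The highest were Psme3ip1 (0.92), the 19S base subunit Psmd2 (0.91), Psmd7 (0.90) and Psmb5 (0.89). Correlations below 0, where 66.2% of all probe sets lay, were found for 7 members. These were Psmd10 (−0.55), Psmb11 (−0.39), Psmb10 (−0.35), Psma5 (−0.33), Psmb6 (−0.20), the ubiquitin receptor Psmd4 (−0.15) and Psmc3ip (−0.04). Of the 7 constitutive beta subunits, 6 lay between 0.69 (Psmb3) and 0.89 (Psmb5), and Psmb6 was the exception. Psmb9, which replaces Psmb6 in the immunoproteasome, correlated at 0.77, and Psmb8, which replaces Psmb5, at 0.21. The 2 probe sets of Psmb6 correlated with each other at only 0.26 over the 77 arrays.

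**Figure D4:**
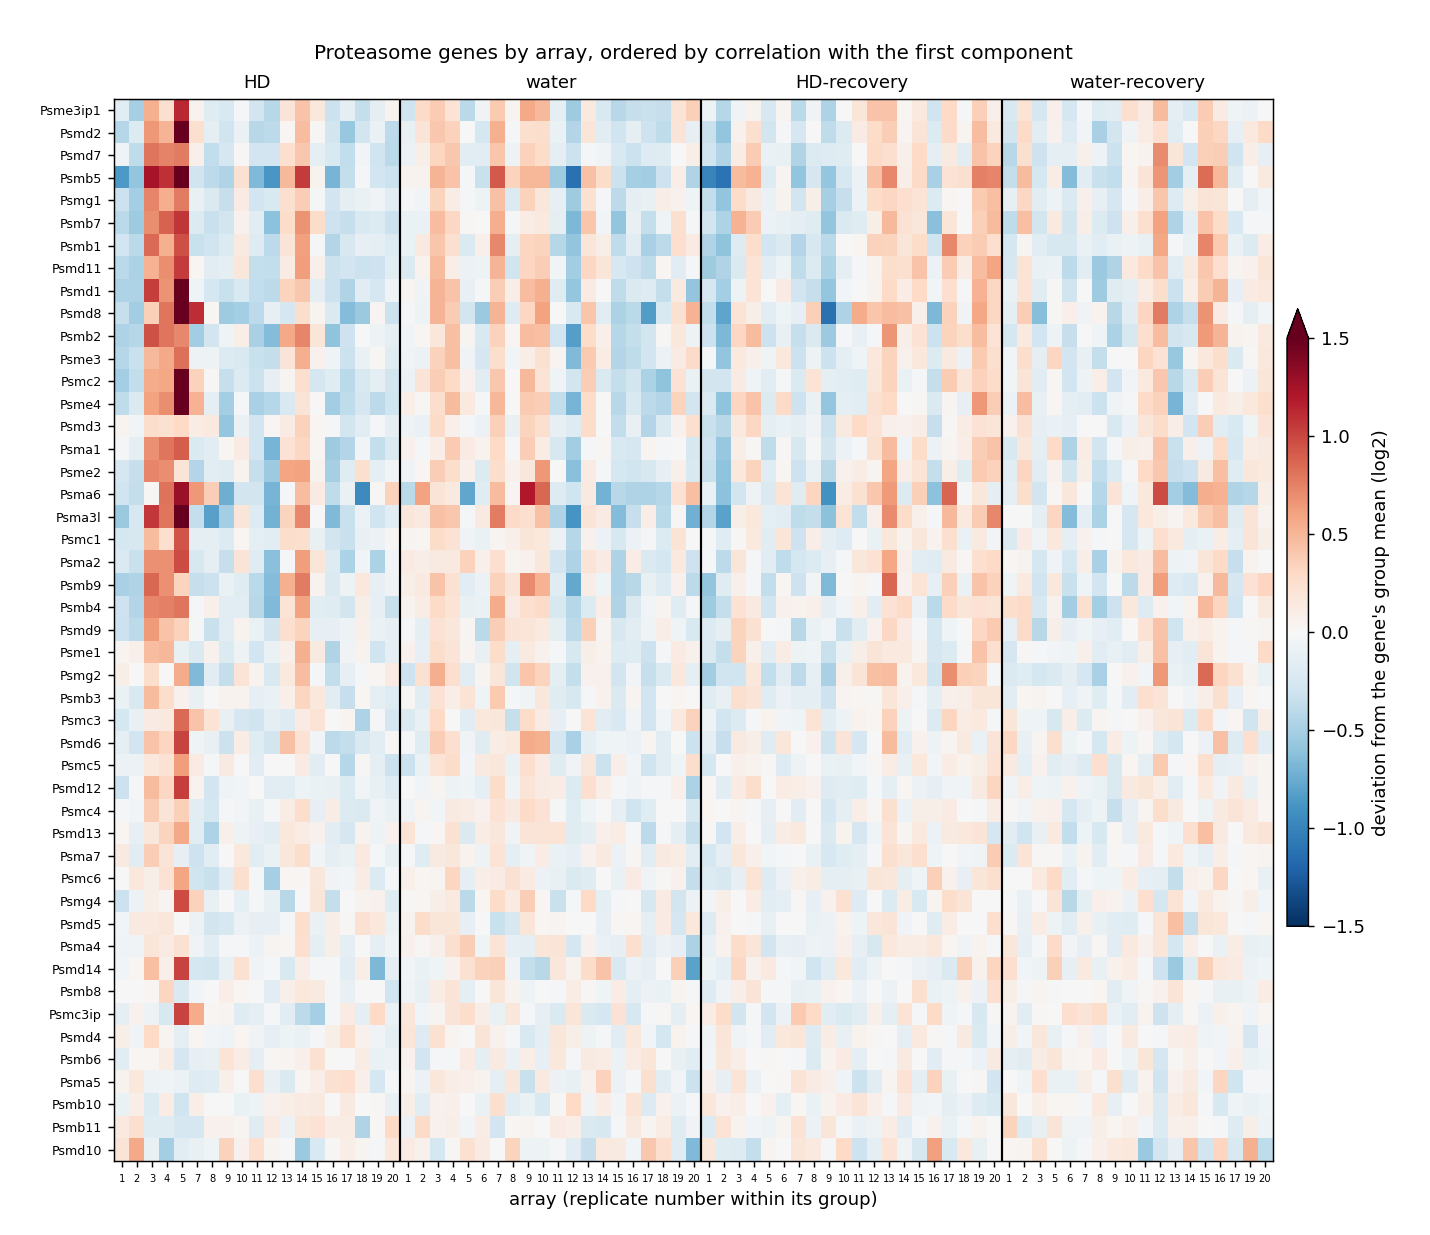
Deviation of each of the 47 genes (rows, ordered by their correlation with the first principal component) from its group mean (log2, colour) in each of the 77 arrays (columns, grouped and numbered by replicate). Most upper rows are high together in HD replicates 3, 4, 5 and 14 and low together in water replicate 12 and HD-recovery replicates 2 and 9, and the lowest rows do not follow them.

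The SD between rats was larger in arrays labelled HD than in water arrays for 40 of the 47 genes (85.1%, against 76.9% of all probe sets), with a median ratio of 1.44 (1.22 over all). It was largest for Psmc3ip (2.04) and smallest for Psma4 (0.62). Leaving out HD replicate 5 gave 32 of 47 (55.1% of all probe sets), and leaving out every array that stood apart gave 26 of 47 (46.6%), with a median ratio of 1.03. In HD-recovery against water-recovery arrays the SD was larger for 34 of 47 (55.1% of all probe sets), and for 30 of 47 (60.1%) without the arrays that stood apart. The excess over all probe sets was not tested.

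Over time, HD-recovery arrays were set against HD arrays and water-recovery against water arrays in 1 fit of all 4 groups. These comparisons share arrays with the ones above, and killing time, age and recovery cannot be told apart. If labels are exchanged, they would be comparisons between other groups and not the same ones reversed. No member was called in HD-recovery against HD (0 of 47, with 0.154% of all probe sets), with 22 positive and 25 negative differences. The ATPase Psmc1 had the smallest q-value there, 0.15 from limma. In water-recovery against water no member was called either (0% of all probe sets), and 42 of the 47 differences were negative, with a median of −0.10 against 0.001 over all probe sets. The largest was that of Psmb5, at −0.33 (q = 0.88). Of the 30 sperm and spermatid markers, 26 were negative there. The water-recovery arrays enter this comparison and that after recovery on opposite sides, so that the 42 negative and the 40 positive differences are not separate observations. Whether the HD effect itself differed between the times was tested as an interaction: no member was called (0 of 47, with 0% of all probe sets), none passed an unadjusted p under 0.05, against 3.38% of all probe sets, and 36 were positive (76.6%, against 42.2% of all probe sets). For Psmb5 the interaction was 0.36, and for Psmg2 0.18.

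Calls appeared under settings that give less weight to the arrays that stood apart or remove shared variation. In HD against water, 8 members were called without those arrays. Psmb10 was higher (0.12), against 6.94% of all probe sets, and Psmg2, Psmd7, Psmd1, Psma3l, Psme2, Psmb1 and Psmd9 were lower, against 7.95%. In HD-recovery against water-recovery, 17 members were higher and 0 lower without those arrays, or 36.2% of the members, against 6.54% and 6.58% of all probe sets. They included Psmb5 (0.53, q = 0.0086 from limma), Psmd8 (0.42), Psmb7 (0.38), Psmc2 (0.33) and Psmc3 (0.24). The medians over members were then −0.10 (0.04 over all probe sets) and 0.14 (−0.04), and 10 of the 47 differences were positive in HD and 40 in HD-recovery. Under the same setting the interaction called 34 members higher, against 16.8% of all probe sets, and 1 lower, Psmb10, against 31.3%. Since the arrays left out were high in HD and water-recovery and low in HD-recovery, both shifts run in the direction that leaving them out sets. Array weights, which count arrays far from their group for less, called 1 member higher (Psmb10) and 12 lower in HD, against 9.05% and 8.67% of all probe sets, and 4 higher in HD-recovery, against 1.45%. With the first component as a covariate 1 was higher (Psmd8) and 3 lower in HD, against 1.48% and 3.52%, and 2 were higher in HD-recovery, against 0.144%. Psmg2 and Psmd7 were called lower in HD under all 3 settings, and Psmc2 and Psmb5 were called higher in HD-recovery under all 3. The 3 settings are not separate checks. Leaving arrays out and array weights both reduce the part of outlying arrays. The component, taken after group means were removed, cannot change a difference and changed only its SE. Psmg2 and Psmd7 kept −0.29 and −0.22 in HD under it.

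The same settings gave calls over time. In HD-recovery against HD, 21 members were higher and 3 lower with array weights, against 15.1% and 30.1% of all probe sets, and 20 were higher and 3 lower without the arrays that stood apart, against 15.1% and 30.6%. Those lower were Psmb11, Psmc1 and Psmd10 under both. The component gave 2 lower there (Psmc1 and Psmd8, against 1.68%) and 2 lower in water-recovery against water (Psmb5 and Psmd1, against 0.585%). The interaction called 25 higher with array weights, against 13.6%, and 2 higher with the component (Psmd7 and Psme3ip1, against 1.15%).

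**Figure D5:**
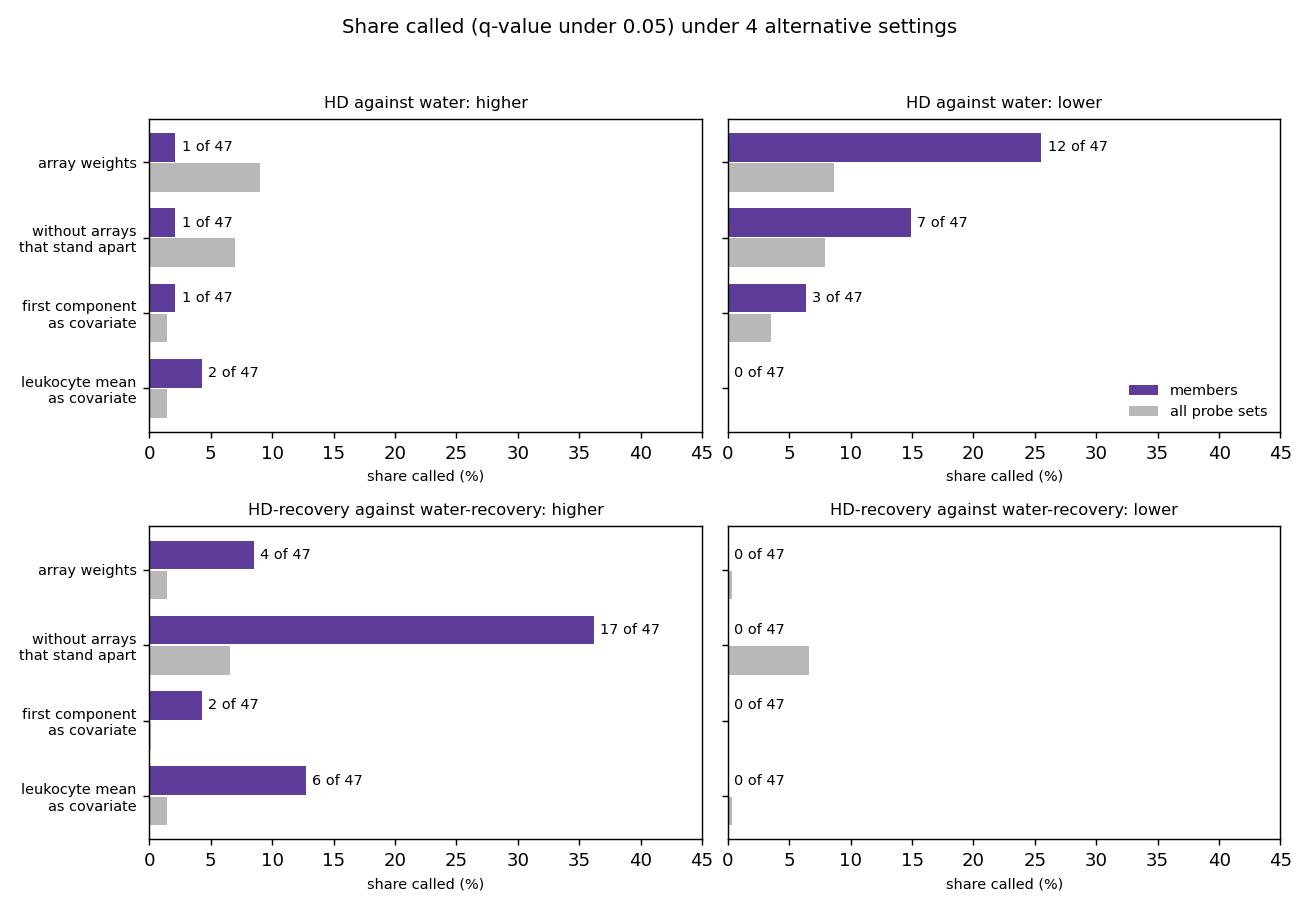
Share called at a q-value under 0.05 (percent) among the 47 members (purple, with the count) and all probe sets (grey) under 4 alternative settings, by comparison and direction. Under the deposited values with all arrays weighted equally the member count was 0 in each panel, and the highest count in these 4 panels was 17 of 47, higher in HD-recovery without the arrays that stood apart.

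The levels of leukocyte markers are given because leukocytes can be present among sperm. The study's methods report a purity check of the sperm, in which no somatic cells were seen by microscopy and no ribosomal RNA peaks on gels. Of 24 measured leukocyte and macrophage markers, 5 were lower in arrays labelled HD (Cx3cr1, Ccr2, Cd4, Lyz2 and Fcer1g) and 0 higher, against 0.455% of all probe sets lower. The mean over the list had a lowest value of 6.96, a median of 7.11 and a highest of 7.84 in HD arrays, against 7.12, 7.50 and 7.88 in water arrays, and 6.97, 7.57 and 8.14 in HD-recovery against 7.06, 7.61 and 8.28 in water-recovery arrays. The immunoproteasome subunits and PA28 are abundant in leukocytes. If leukocytes were present, fewer cells and less RNA per cell could not be told apart. With the leukocyte mean as a covariate, a setting chosen after the data were seen, the difference of Psmd7 was 0.05 and that of Psmg2 −0.05. The shift was not limited to leukocyte-linked members: 23 of the 47 signs turned, and 42 of the 47 differences were then positive. Their median was 0.17, against −0.04 over all probe sets. Psme1, Psme2 and Psmb9 turned positive, at 0.13, 0.24 and 0.29, and so did the constitutive Psmb5, at 0.52. Under this covariate 2 members were called higher, Psmb7 (0.42) and Psme3 (0.36), against 1.43% of all probe sets. After recovery 6 were called higher under that covariate, against 1.41%.

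Of 9 measured antigen presentation genes, which work downstream of the immunoproteasome, none was called, with 8 negative differences in HD and 9 in HD-recovery. Tap1 and Tap2, the neighbours of Psmb8, had −0.08 and −0.03 in HD, and Cd74, the MHC class II chaperone, −0.71 (q = 0.069 from limma). Of 19 measured partners of the proteasome outside the Psm symbols, such as ubiquitin receptors, shuttle factors and deubiquitinases, none was called. Their differences in HD split 9 positive to 10 negative, and after recovery 16 to 3. Ubqlnl, a ubiquilin of the testis, had the largest, 0.68 (q = 0.14) in HD and 0.51 (q = 0.73) after recovery. The deubiquitinase Uchl5 had 0.39 and 0.22, and Bag6, needed for meiosis in male mice, 0.27 and 0.28.

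Markers of sperm and of the other cells that such a sample can hold were also followed. The mean of 30 measured sperm and spermatid markers lay between 8.11 and 10.39 over all arrays. As probe sets differ in brightness, this level does not by itself settle which cells gave the RNA. Of these markers 1 was lower in HD, and 23 of the 30 differences were positive. For erythroid markers 1 of 6 and for fibroblast and smooth muscle markers 1 of 13 (Dcn) was lower in HD, where 0.455% of all probe sets were. Of 10 Sertoli cell markers 1 (Clu) was higher, where 0.0171% of all probe sets were, and none of 14 spermatocyte and 17 epididymal markers was called.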

How the data were processed

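Sperm RNA of 77 rats was hybridised to Affymetrix Rat Gene 1.0 ST arrays, 1 array per rat. The authors deposited 1 table of log2 values per probe set and array, normalized by earlier published methods. The sources used here do not give its background correction and scaling, so no signal over background could be computed. The number of arrays and the spread between them limit the precision. The log2 unit was taken from the range of the deposited values. Groups came from the sample titles. The direction of differences follows these labels and opposes the study's list for 69 of 70 matched transcripts. Symbols came from the platform annotation, 15310 probe sets with 1 symbol, 323 with several and 13581 with none.

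limma 3.58.1 (lmFit, eBayes) in R 4.3.3 was fitted over all probe sets, for each exposed group and its control alone as in the methods of the study, and over all 4 groups for the comparisons over time and the interaction. P-values were turned into Storey q-values by a smoothing spline over lambda from 0.05 to 0.95, with a threshold of 0.05. Genes were named if among the 4 smallest p-values in either direction in HD or recovery, if altered in any comparison, or if catalytic, activating or otherwise on a short list. The members and lists were chosen with earlier results of these data known. The fits were tested on simulated data, drawn as independent normal values for each probe set and array. These had no outlying arrays and no correlation between probe sets, so that test does not cover the arrays that stood apart or the variation shared between genes. No 2 arrays held identical values (highest correlation 0.986). Alternatives covered the adjustment, scaling, a filter on dim probe sets, array weights, the arrays that stood apart, the first principal component, the samples in the fit, each array left out, the replicate number as a block, the mean of a gene's probe sets and the leukocyte marker mean. Promoters are from RefSeq (GRCr8).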

Additional observations from a re-analysis of the deposited data

How the results depend on the processing

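No member was called in any of the 5 comparisons after Benjamini-Hochberg adjustment, centring of array medians, quantile normalization, the filter on dim probe sets (which kept 32 members) or the mean of a gene's probe sets, nor with another choice of samples in the fit, which was run for the 4 comparisons other than the interaction. Few probe sets were called at all. In HD against water these settings called 0.0103% to 0.157% of the probe sets tested higher and 0.205% to 1.46% lower. In HD-recovery against HD they called 0.0308% to 0.486% higher and 0% to 0.089% lower, and in the other comparisons 0%. In HD against water, 13 members were called with array weights, 8 with the arrays that stood apart left out, 4 after adjustment for the first principal component and 2 after adjustment for the leukocyte marker mean. There, in this order, 9.05%, 6.94%, 1.48% and 1.43% of all probe sets were called higher, and 8.67%, 7.95%, 3.52% and 0.0993% lower. In HD-recovery against water-recovery these counts were 4, 17, 2 and 6. In the same order, the shares of all probe sets called higher were 1.45%, 6.54%, 0.144% and 1.41%. Those called lower were 0.349%, 6.58%, 0.0171% and 0.332%. In HD-recovery against HD, 24 were called with array weights, 23 without the arrays that stood apart and 2 with the component. The shares of all probe sets called higher were 15.1%, 15.1% and 3.05%, and those called lower were 30.1%, 30.6% and 1.68%. The component gave 2 calls in water-recovery against water, with 0.493% of all probe sets called higher and 0.585% lower. For the interaction the counts were 25, 35 and 2. There 13.6%, 16.8% and 1.15% of all probe sets were called higher, and 20%, 31.3% and 0.0685% lower. With each array left out in turn, 0 to 1 members were called in HD against water, the 1 being Psmg2 without HD replicate 5 (q = 0.0399 from limma, with 1.13% of all probe sets called), and 0 in the other 4 comparisons. Of the 29214 probe sets, these fits called 76 to 376 in HD against water, 16 to 172 in HD-recovery against HD and 0 to 1 in the other comparisons. Over these fits the median difference ran from −0.042 to 0.0060 in HD and from 0.041 to 0.081 after recovery.

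Replicate numbers are shared between groups, but the arrays share only the number: 8 of 19 pairs and 8 of 18 pairs had deviations that correlated above 0.1, and 2 and 4 arrays correlated best with their own number. With the replicate block no member was called in any comparison, and the medians were −0.0025 in HD and 0.0534 after recovery. The block called 0.0137% of all probe sets higher and 0.52% lower in HD against water. In HD-recovery against HD the shares were 0.133% and 0.0274%, and in the other comparisons 0%.

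Of the 47 signs in HD against water, 4 turned after quantile normalization, 13 with array weights, the same 13 without the arrays that stood apart and 23 with the leukocyte mean. After recovery 4, 4, 6 and 3 turned, 3 with the replicate block and 1 with the mean of a gene's probe sets. Among the genes named by the rule the sign turned in HD against water as follows, and the cause was not tested. After quantile normalization Psmc3ip had −0.017 and Psmc5 −0.016. With array weights Psmb7 had −0.14, Psmc2 −0.0036, Psmc3ip −0.040, Psmc5 −0.032 and Psme4 −0.035. Without the arrays that stood apart Psmb7 had −0.17, Psmc2 −0.0090, Psmc3ip −0.024, Psmc5 −0.034 and Psme4 −0.068. With the leukocyte mean Psmb5 had 0.52, Psmb8 0.073, Psmb9 0.29, Psmc3ip −0.18, Psmd10 −0.10, Psmd7 0.052, Psme1 0.13 and Psme2 0.24. After recovery Psmb10 had −0.0017 after quantile normalization, −0.0054 with array weights, −0.017 when the arrays that stood apart were left out and −0.016 with the leukocyte mean. Psme1 had 0.051 with array weights, 0.091 without those arrays, 0.028 as the mean of its probe sets and 0.047 with the leukocyte mean, and Psmg2 had 0.052 without those arrays.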

Other observations

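The probe set that Psma3 shares with Psma3l, which belongs to no gene of the comparisons, had a log2 signal of 7.95 ± 0.50 in HD, 7.82 ± 0.33 in water, 7.90 ± 0.42 in HD-recovery and 7.69 ± 0.35 in water-recovery arrays (SD, n = 19, 20, 20 and 18). Its differences were 0.13 (q = 0.94 from limma) and 0.21 (q = 1.00).

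The second probe sets of 7 genes often did not follow the brighter ones over the 77 arrays. The correlation was 0.92 for Psme2 and 0.50 for Psmc4, but 0.26 for Psma6 and Psmb6, −0.03 for Psmd8, −0.15 for Psme1 and −0.19 for Psme3. The dimmer probe set of Psmd8 had a difference of −0.04 in HD against water, where the brighter one had 0.32, and the dimmer one of Psmb6 had 0.02 after recovery, where the brighter one had 0.08.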
